A study of Mus musculus with 23 samples.

Results

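The 500 autosomal windows with the highest signal were taken from a map of DNA methylation in the mouse prefrontal cortex. They were chosen by their mean log2 RPKM over 23 mice, out of 195677 windows on chromosomes 1 to 19 and 210191 windows in all. RPKM is the number of reads scaled to the length of the window and to the total reads of the mouse, and each window is 150 bp of the GRCm38 genome. The 500 windows were 0.238% of all windows, and their mean log2 RPKM was between 7.26 and 16.49, with a median of 10.12. The median of the other autosomal windows was 4.39. The level chose the windows, so it is given here as a description and was not tested. The last window inside, chr8:55346401-55346550, had a mean log2 RPKM of 7.261 and 308 reads per mouse, and the first window outside, chr6:47745901-47746050, had 7.259 and 314 reads.

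The study asked whether a chemical exposure that models Gulf War illness changes DNA methylation differently in 2 inbred strains, C57BL/6J (B6) and DBA/2J (D2). The CORT + DFP mice had corticosterone at 20 mg% in the drinking water for 7 days and then 1 injection of diisopropyl fluorophosphate, an organophosphate that stands in for sarin, at 4 mg per kg. They then had further corticosterone every other week. The controls had neither compound and were injected with saline. MBD-seq was used, in which the MBD2 protein captures DNA fragments through their methylated CpGs before sequencing. There were 5 B6 control, 6 B6 CORT + DFP, 6 D2 control, and 6 D2 CORT + DFP mice, 11 females and 12 males in total, and each library came from 1 mouse. The sample names placed the mice in 3 sets. Set 1 was the oldest and held 8 mice, of which 3 were treated B6 mice at 218 to 226 days of age, 2 were treated D2 mice, and 3 were D2 controls, the last 5 at 196 days. Set 2 held the other B6 mice, at 145 days, and set 3 the other D2 mice, at 147 days. Within D2, set and age cannot be told apart. The prefrontal cortex is a mixture of cell types, and the cell type composition was not measured.

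Parts of a mammalian genome are repeated in tandem. Major satellite DNA fills the pericentromeric heterochromatin of mouse chromosomes, is rich in A and T, and is heavily methylated in somatic cells. The ribosomal RNA genes lie in long arrays, some of whose copies are silenced by methylation. A reference assembly holds only a few copies of such arrays, so reads from many genomic copies are placed on the few that are present. The number of reads in such a window rises with the number of copies in the genome and with their methylation, and these 2 cannot be told apart in these data.

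The sequences of the leading windows show the kinds of repeat. They were read from the exons of GENCODE M21 transcripts on the GRCm38 plus strand, with each CpG in capitals. The first is the second highest window of the 500, chr2:98666851-98667000, in an exon of Gm10800. The second covers the adjacent windows chr9:3000301-3000600 in an exon of Gm26870, and the third is chr14:19417201-19417350 in an exon of Gm21738. The 3 stretches hold 5, 10, and 4 CpGs.
Chromosome 2 satellite: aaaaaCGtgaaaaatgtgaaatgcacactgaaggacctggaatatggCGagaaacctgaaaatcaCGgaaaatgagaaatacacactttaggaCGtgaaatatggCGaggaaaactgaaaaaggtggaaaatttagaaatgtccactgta
Chromosome 9 satellite: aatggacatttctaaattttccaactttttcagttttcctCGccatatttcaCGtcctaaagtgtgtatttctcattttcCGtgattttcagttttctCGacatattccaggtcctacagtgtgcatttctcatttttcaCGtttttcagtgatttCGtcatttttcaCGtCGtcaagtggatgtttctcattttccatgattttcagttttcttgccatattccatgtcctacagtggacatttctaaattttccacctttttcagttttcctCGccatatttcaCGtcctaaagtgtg
Chromosome 14 satellite: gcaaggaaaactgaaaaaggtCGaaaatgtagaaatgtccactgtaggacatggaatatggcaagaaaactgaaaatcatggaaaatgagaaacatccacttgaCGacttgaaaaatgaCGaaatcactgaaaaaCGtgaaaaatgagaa

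These 3 loci carried the same repeat. When exons of at least 300 bases in the loci were compared with themselves at every shift, the exon of Gm10800 matched best at a shift of 234 bases, with 93.1% identity. The Gm26870 exon at chr9:3000282-3000630 also matched best at 234 bases, with 98.3% identity. A satellite unit of 234 bases from chromosome 9 was then aligned to each window with a known sequence. All 43 such windows of the 3 loci (40 on chromosome 9, 2 on chromosome 2, and 1 on chromosome 14) aligned over 147 to 150 columns, with 91.3% to 100% identity. None of the 73 windows with sequence elsewhere aligned over more than 37 columns. The windows matched on chromosome 9 had a median G + C content of 35.3%, and those of the ribosomal DNA described next had 67.3%.

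The ribosomal locus on chromosome 17 lies within Gm26917, a lincRNA, and CT010467.1, an annotated rRNA, and RefSeq places the 18S rRNA gene Rn18s-rs5 there. Its highest window, chr17:39844351-39844500 in an exon of Gm26917, held 15 CpGs. A window of the part annotated as rRNA, chr17:39847651-39847800, held 13.
Ribosomal locus, Gm26917: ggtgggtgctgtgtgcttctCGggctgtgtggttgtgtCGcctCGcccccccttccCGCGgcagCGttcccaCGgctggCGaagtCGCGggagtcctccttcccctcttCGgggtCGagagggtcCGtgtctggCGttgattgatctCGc
Ribosomal locus, CT010467.1: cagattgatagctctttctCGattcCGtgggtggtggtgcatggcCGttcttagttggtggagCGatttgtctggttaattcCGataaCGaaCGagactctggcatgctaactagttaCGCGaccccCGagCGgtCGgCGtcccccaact

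Other loci are repeats inside genes or gene arrays, and their sequences are shown because they differ from the satellite and had opposite or no strain differences. The window chr10:58224451-58224600 lies in an exon of AW822073, in the array that holds Duxf3, a double homeobox gene. The exon matched itself at a shift of 549 bases with 62.6% identity. The window chr15:91907551-91907700 lies in a long exon of Muc19, which encodes a secreted mucin with tandem repeats. A 1632-base exon annotated in the same locus, at chr15:91908911-91910542, matched itself at 489 bases with 93.1% identity. On chromosome 4, the RefSeq promoter of Gm40237 at chr4:118547156-118547455 overlapped 3 of the windows and matched itself at a shift of 88 bases with 97.6% identity.
AW822073: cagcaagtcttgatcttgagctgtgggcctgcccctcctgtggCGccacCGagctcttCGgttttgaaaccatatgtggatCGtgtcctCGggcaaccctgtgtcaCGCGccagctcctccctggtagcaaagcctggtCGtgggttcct
Muc19: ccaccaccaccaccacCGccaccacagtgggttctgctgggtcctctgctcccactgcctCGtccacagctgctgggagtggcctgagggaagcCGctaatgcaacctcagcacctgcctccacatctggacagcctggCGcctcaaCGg
Gm40237 promoter: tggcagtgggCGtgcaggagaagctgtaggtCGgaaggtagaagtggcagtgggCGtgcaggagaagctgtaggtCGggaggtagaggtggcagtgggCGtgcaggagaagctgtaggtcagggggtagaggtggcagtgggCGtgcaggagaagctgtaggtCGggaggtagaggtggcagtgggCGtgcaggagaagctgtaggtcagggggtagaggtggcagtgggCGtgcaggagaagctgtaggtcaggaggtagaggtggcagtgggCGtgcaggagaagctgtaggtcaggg

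The 500 windows fell into 31 loci when windows up to 100000 bp apart were joined, and into 50 runs when the gap was at most 1500 bp. They lay on 16 chromosomes, and chromosomes 5, 18, and 19 had none. The satellite at chr9:3000001-3038400 held 248 of the 500 windows, out of 252 windows of this stretch in the table. The ribosomal locus held 39 windows over 5850 bp, the chromosome 14 satellite 28, and the chromosome 2 satellite 21. The 4 largest runs, at these loci, thus held 336 windows, and 8 runs consisted of 1 window. A further 21 windows lay on chromosome 6 near the small RNA gene Rn4.5s, where the highest windows of the first 3 runs lay 4350 bp apart. The other loci included 30 windows in 2 blocks on chromosome 8, 19 in the AW822073 and Duxf3 array, 17 at the Sfi1 locus, 14 in Muc19, and 11 at Gm40237. The windows at the Sfi1 locus overlapped Sfi1, whose product acts at centrosomes, Drg1, or Gm12735. Of the 500 windows, 405 (81%) overlapped a GENCODE gene and 228 (45.6%) an exon, against 49.6% and 25.7% of the other autosomal windows. Of the 405, 247 lay in predicted genes drawn over the chromosome 9 satellite (Gm10715, Gm10717 to Gm10722, Gm11168, Gm17535, and Gm26870). Of the 95 windows outside GENCODE genes, 46 lay in genes listed by RefSeq alone. The repeat nature of the intronic windows, such as those in Aida, Chl1, Gphn, and Tmem267, could not be read from transcripts and was not tested.

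The 500 windows were poor in CpGs. CF, the number of CpGs that the authors listed for each window, had a median of 4, against 6 in the other autosomal windows. A CF of 1 or 2 was found in 25% of the 500 windows and in 7.73% of the others. A CF of 11 or more was found in 9% of the 500 windows and in 6.89% of the others. The satellite windows had a median CF of 3 (range 1 to 7), and the ribosomal windows a median of 15 (range 6 to 27). The 203 windows outside the satellite loci had a median of 6, the same as the other autosomal windows. CF equalled the CpGs counted in the sequence for 112 of the 116 windows with a sequence, and differed by 1 in the other 4.

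These windows held a mean of 31.0% ± 3.65 (SD, n = 23) of all reads, with a range from 23.4% to 39.4%. The 5 highest windows, all between positions 98666551 and 98667300 of chromosome 2, held 5.24% of the reads of all mice together, the 100 highest held 22.4%, and the 250 highest 28.8%. The satellite on chromosome 9 alone held 12.8% to 23.2% of the reads of a mouse, and the ribosomal locus 0.298% to 0.696%. The table contained between 9776537 and 18428398 reads per mouse. The share was 30.0% ± 2.85 (SD, n = 5) in B6 control, 32.5% ± 2.02 (n = 6) in B6 CORT + DFP, 31.9% ± 5.02 (n = 6) in D2 control, and 29.3% ± 3.87 (n = 6) in D2 CORT + DFP mice, and the 4 groups overlapped. The D2 mice differed by set. The 5 mice of set 1 were between 31.9% and 39.4%, above all 7 mice of set 3, between 23.4% and 29.4%. The 3 B6 mice of set 1 (30.6% to 34.1%) lay within the range of the 8 B6 mice of set 2 (26.8% to 35.6%).

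**Figure D1:**
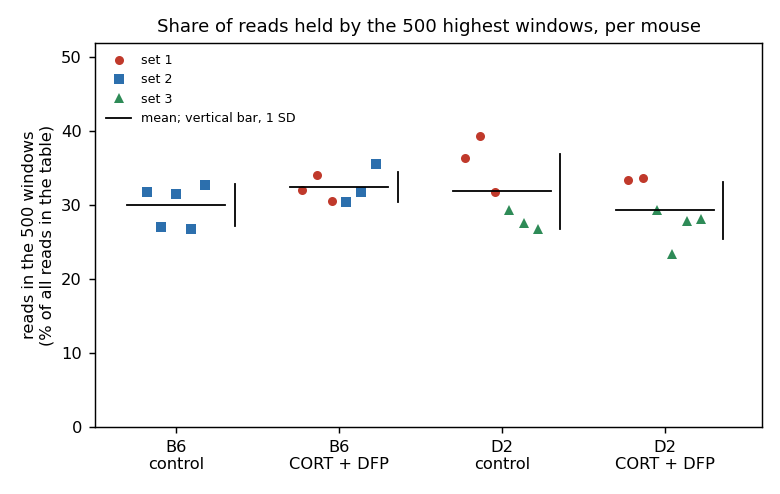
Percentage of all reads in the table that lay in the 500 highest windows, for each of the 23 mice, by strain and treatment. Horizontal lines are group means and vertical bars 1 SD, and the D2 mice of set 1 (31.9% to 39.4%) all lay above those of set 3 (23.4% to 29.4%).

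The number of reads in the highest windows was nearly the same in every mouse, whatever its depth. In the highest window, chr2:98666701-98666850, the mice had 175554 to 192367 reads, a 1.10-fold range, while the total number of reads per mouse had a 1.88-fold range. The SD of log2 reads in this window was 0.037 and the SD of log2 RPKM 0.32 (n = 23), so the RPKM spread was larger than the spread of the reads from which it was made. The 5 highest windows had ranges of 1.08- to 1.10-fold. A range under 1.3-fold was found in 12 of the 500 windows. These were 7 windows of the chromosome 2 satellite, the 3 windows at chr9:35305201-35305650 in Gm33838, and 2 of the 3 at chr12:3109801-3110250, where no gene is annotated.

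At the other end, the reads of some windows rose with the depth. The Dux-type window chr10:58224451-58224600 had 668 to 1494 reads per mouse, a 2.24-fold range, and the SD of its log2 RPKM was 0.096. The ribosomal window chr17:39844351-39844500 had 1231 to 4558 reads, a 3.70-fold range, which is wider than the 1.88-fold range of the depth. The chromosome 9 and chromosome 14 satellite windows lay between, with 1.88- and 1.37-fold ranges in their highest windows. In 401 of the 500 windows the mean number of reads was above 598, the number of start positions, on both strands, from which a fragment of 150 bp can overlap a window. How this came about where 1 read per position is kept was not tested. The slope of log2 reads on log2 depth over the 23 mice would be 1 for a constant share of reads, and is given as a description, since depth also differed between sets. It was 0.029 in the highest window, 0.61 in chr9:3000451-3000600, 1.12 in the Dux-type window, and had a median of 1.20 in the other autosomal windows. By level, the median slope was 0.88 in the 239 windows with a mean log2 RPKM under 10, 0.80 in the 131 from 10 to 12, 0.74 in the 111 from 12 to 14, and 0.38 in the 19 at 14 or more. In all 19 of these the reads varied less than the RPKM. This was so in 187 of the 500 windows, 62 of them with a mean log2 RPKM under 10. At chr7:12010501-12010800, with a mean log2 RPKM of 7.34 to 7.36, the median slope was -0.59. In the highest windows a mouse with fewer reads in all thus had a higher log2 RPKM. The part of depth in each group difference was not tested beyond the fits with depth as a covariate that are given here.

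**Figure D2:**
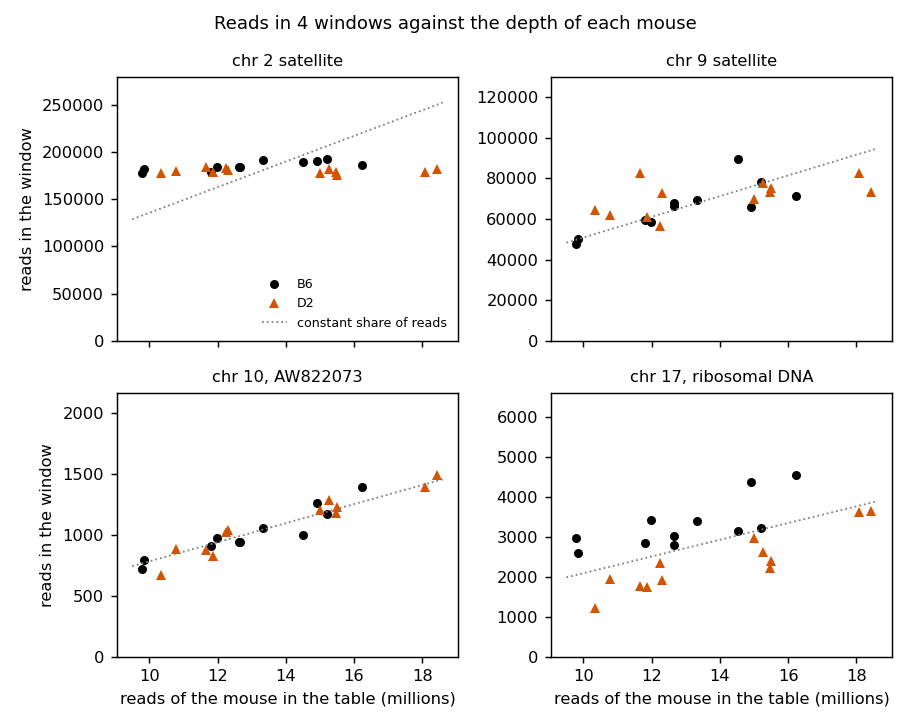
Reads in 4 windows against the total reads of each mouse, for 11 B6 mice (circles) and 12 D2 mice (triangles), with the dotted line showing a constant share of reads. The chromosome 2 satellite window stayed between 175554 and 192367 reads at every depth, while the AW822073 window on chromosome 10 rose from 668 to 1494 reads.

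The residual SD of log2 RPKM, after strain, treatment, sex, and age were fitted, had a median of 0.257 in the 500 windows and 0.242 in the other autosomal windows. The windows were chosen for their level, so their counting error was small by that choice (median SD of 0.031), and the spread given here is that between mice. The residual SD was 0.269 in the 297 satellite windows, 0.190 in the 39 ribosomal windows, and 0.176 in the 164 windows of the other 27 loci (medians).

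A regression with terms for treatment and strain, the interaction of both, sex, and age was then fitted to each window, and p-values were adjusted by the Benjamini-Hochberg method over all 210191 windows. A window is called where the adjusted p was under 0.05. In control mice, 135 of the 500 windows (27.0%) were called between the strains, close to the 25.4% of all windows. Of these, 110 were lower in D2 and 25 were higher, while 14.9% of all windows were called lower and 10.4% higher. Single windows were also compared between the control mice without covariates, by an exact two-sided permutation test, whose smallest possible p with 6 and 5 mice is 0.00433. The calls fell unevenly over the loci. In the satellite loci 7 of 297 windows were called, with a median estimate of 0.15 (D2 minus B6), and in the ribosomal locus 39 of 39, with a median of -0.73. In the other 27 loci 89 of 164 were called, with a median of -0.25. Most of these 27 loci had no window wholly inside an exon, among them chr9:35305201-35305650 and chr12:3109801-3110250. Whether such loci hold the satellite was not tested. The loci were grouped in this way after their values were seen, so these counts are a description. All windows were called lower in D2 at 12 loci and higher at 3, and 10 loci had no called window. Some windows were among the 500 only through 1 strain, since the mean of the other strain was below the level of the last window inside. There were 31 such windows through B6 and 9 through D2, and 34 of these 40 were called. A difference was built into their choice, so it is given below as a description, with no test. These windows included all those in Gphn, 2210408I21Rik, and Tmem267, loci counted above as lower, and 9 of the 11 at Gm40237. They also included the single windows in Gm20388 and 6820431F20Rik, loci counted above as higher. The counts of 12 and 3 loci are therefore a description too. Of the other 460 windows, 101 (22.0%) were called, 82 lower in D2 and 19 higher. The control mice of B6 were all in set 2 and those of D2 in sets 1 and 3, so no comparison of controls within a set could be made. Between the CORT + DFP mice of set 1 (3 B6 and 2 D2), the strain difference had the same sign as in controls for 132 of the 135 called windows. The exceptions were 3 windows of Eppk1. The set 1 mice were also part of the fit and of the choice of windows, so this count is a description and not an independent check. Of the 135, 34 were among the 500 only through 1 strain, and no such count was made over all called windows. With set in place of age in the regression, 151 of the 500 windows (30.2%) and 14.7% of all windows were called. Set 2 held only B6 mice and set 3 only D2 mice, so this fit compared the strains within set 1 alone. All 3 B6 mice of set 1 were treated, so the level of a B6 control there came from the fitted treatment effect. Of the 151, 84 were higher in D2 and 67 lower, and the satellite loci had 75 called windows, all higher, with a median estimate of 0.53.

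**Figure D3:**
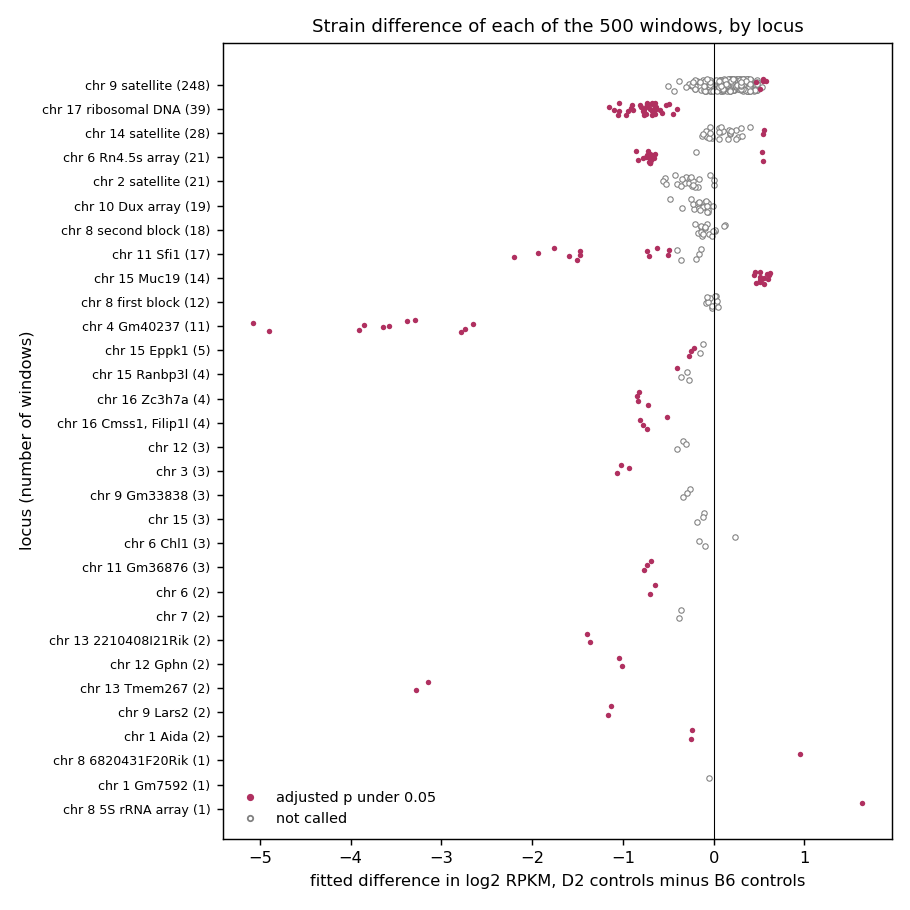
Fitted difference in log2 RPKM between D2 and B6 control mice for each of the 500 windows (points), by locus, with filled points for an adjusted p under 0.05 and open points for the others. The ribosomal and Gm40237 windows were all lower in D2, the Muc19 windows all higher, and in this fit, with age as the covariate, the satellite loci had a median of 0.15.

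The strain difference of the satellite depended on the regression. With age as the covariate, 7 of its 297 windows were called, and with set in its place 75 were, all higher in D2 in both. The fit with set compared the strains within set 1 alone, which had no B6 control. The highest window of the 500, chr2:98666701-98666850, had a log2 RPKM of 16.16 to 16.93 in the 5 B6 control mice (mean 16.52) and 15.90 to 16.90 in the 6 D2 control mice (mean 16.43). The groups overlapped, and the estimate was -0.26 ± 0.19 (SE) with an adjusted p of 0.386. In the highest chromosome 9 window, chr9:3000451-3000600, the B6 controls were between 14.78 and 15.19 and the D2 controls between 14.78 and 15.68. Its estimate was 0.079 ± 0.163 (SE) with an adjusted p of 0.809. The median estimates were 0.17 on chromosome 9, 0.09 on chromosome 14, and -0.26 on chromosome 2. With set in place of age they were 0.56, 0.49, and 0.13, so that of chromosome 2 changed sign, and 67, 8, and 0 windows were called. The 7 called satellite windows (5 on chromosome 9 and 2 on chromosome 14) were all higher in D2, by 0.47 to 0.58. The median depth was 13321914 reads in B6 controls and 13566021 in D2 controls.

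The ribosomal DNA was lower in D2. In its highest window, chr17:39844351-39844500, the B6 controls had log2 RPKM values of 10.58, 10.77, 10.81, 10.88, and 11.03, and the D2 controls 9.73, 9.92, 9.94, 10.12, 10.15, and 10.27. No D2 control reached a B6 control. The estimate was -0.77 ± 0.12 (SE, adjusted p = 5.61e-05), and the means differed 1.73-fold with an exact permutation p of 0.00433. The estimates of the 39 windows were between -1.15 and -0.40. The share of reads in the locus was 0.646% ± 0.053 (SD, n = 5) in B6 controls and 0.388% ± 0.069 (n = 6) in D2 controls. With set in place of age, 24 of the 39 windows were called and all 24 were lower in D2. Several short loci rich in CpGs had like estimates. They were in an intron of Zc3h7a (median estimate -0.83), introns of Cmss1 and Filip1l (-0.76), Gm36876 on chromosome 11 (-0.73), and at chr6:3201301-3201600 (-0.67) and chr3:5860351-5860800 (-1.02), where no gene is annotated. All 16 windows of these 5 loci were called, and with set in place of age the 2 windows on chromosome 6 and 1 of the 4 in Cmss1 and Filip1l were not. Of the 16, 1 was among the 500 only through B6, the window of Cmss1 and Filip1l that starts at chr16:57391651. Whether they hold ribosomal sequence was not tested. Both windows in Lars2, the mitochondrial leucyl-tRNA synthetase, were called lower (median estimate -1.15). The 2 windows in an intron of Gphn, which encodes the synaptic scaffold gephyrin, and the 2 in 2210408I21Rik had median estimates of -1.03 and -1.38 and were among the 500 only through B6. No window of these 3 loci was called with set in place of age.

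The strain estimate furthest from 0 was at Gm40237. All 11 windows at chr4:118547101-118548750 had estimates below 0, from -5.07 to -2.65 on the log2 scale, but 9 of them were among the 500 only through B6. In chr4:118547851-118548000 the B6 controls had 3995 to 6322 reads (median 5478), and the D2 controls 157 to 227 reads. Their log2 RPKM values were 11.28 to 11.46 in B6 and 6.00 to 6.77 in D2, so the groups were far apart. The means differed 29.6-fold, with an estimate of -5.07 ± 0.16 (SE). The next window, chr4:118548001-118548150, had -4.90 ± 0.16 (SE), and chr4:118548451-118548600 had -3.91 ± 0.10 (SE). These 3 were among the 9, and are not tested here. In chr4:118547251-118547400, where both strains were above the level of the last window inside, the estimate was -2.74 ± 0.16 (SE, adjusted p = 2.42e-10, exact permutation p = 0.00433). Between the strains in set 1 the CORT + DFP mice differed by -4.44 in chr4:118547851-118548000. The 2 windows in an intron of Tmem267 at chr13:119601301-119601600 had a median estimate of -3.22 and were also among the 500 only through B6.

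The windows at the Sfi1 locus on chromosome 11, which also takes in Drg1 and Gm12735, were uneven. All 17 estimates were below 0, and 12 were called, or 8 with set in place of age. Of the 17, 2 were among the 500 only through B6, and 11 of the other 15 were called. The 7 adjacent windows at chr11:3192901-3193950 had estimates of -2.20 to -1.47, while those of the others were between -0.73 and -0.14. The first of these 7 was among the 500 only through B6. In chr11:3193351-3193500, the highest of them, the B6 controls were between 10.88 and 11.08 and the D2 controls between 8.91 and 9.55. The groups did not overlap, and the means differed 3.19-fold (estimate -1.59 ± 0.07 (SE), adjusted p = 9.85e-12, exact permutation p = 0.00433). In the array near Rn4.5s, 18 of 21 windows were called lower in D2 by 0.65 to 0.85. The 2 windows at chr6:47766001-47766300, at its end, had estimates of 0.53 and 0.54, but were among the 500 only through D2. Of the 21, 10 were among the 500 only through B6 and 3 only through D2, and the other 8 were all called lower. With set in place of age, 9 of the 21 were called, all lower.

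A further 3 loci had estimates above 0 in all their windows. All 14 Muc19 windows were called, with estimates of 0.44 to 0.62, and 7 of the 14 were called with set in place of age. Of the 14, 2 were among the 500 only through D2. In chr15:91907551-91907700 the B6 controls were between 8.31 and 8.70 and the D2 controls between 9.06 and 9.34. The means differed 1.58-fold without overlap (estimate 0.56 ± 0.09 (SE), adjusted p = 0.000151, exact permutation p = 0.00433). The largest estimate in Muc19 was 0.62 ± 0.11 (SE, adjusted p = 0.000258), in chr15:91908751-91908900. The single window chr8:123600751-123600900 lies in Gm20388 in an array of genes for 5S rRNA, an RNA of the large ribosomal subunit. It had 163 to 282 reads in B6 controls and 532 to 1001 in D2 controls. Its log2 RPKM was 6.46 to 6.89 in B6 and 8.33 to 8.57 in D2 (estimate 1.63 ± 0.13 (SE)). The window was 1 of 303 in the array and was among the 500 only through D2. The window in 6820431F20Rik at chr8:20267551-20267700 had an estimate of 0.95 ± 0.11 (SE) and was also among the 500 only through D2.

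There were 10 loci with no called window between the strains. In the AW822073 and Duxf3 array the 19 estimates had a median of -0.12, and in chr10:58224451-58224600 the B6 controls were between 8.99 and 9.10 and the D2 controls between 8.85 and 9.12 (estimate -0.12 ± 0.06 (SE), adjusted p = 0.194). The 30 windows of the 2 chromosome 8 blocks had median estimates of -0.02 and -0.09. A missed threshold does not show that the strains were equal there.

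**Figure D4:**
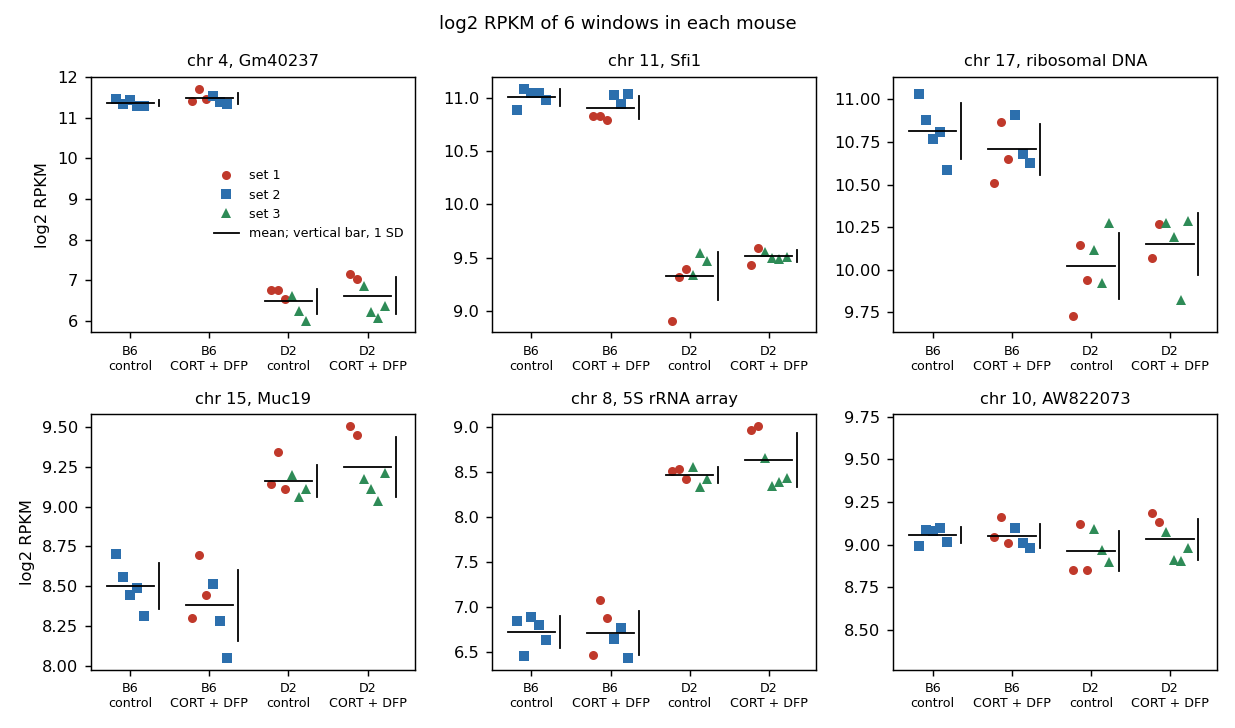
log2 RPKM of 6 windows in each of the 23 mice, by strain and treatment, with means and SDs and the set of each mouse. In Gm40237 the D2 controls lay between 6.00 and 6.77 and the B6 controls between 11.28 and 11.46, and in the AW822073 window the groups overlapped.

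The treatment did not change any of the 500 windows at an adjusted p under 0.05 in the regression. The share of all windows called was 0% for the treatment effect in B6, 0% for that in D2, and 0% for the interaction of treatment and strain. At an unadjusted p under 0.05 there were 7 of the 500 windows in B6, 35 in D2, and 44 for the interaction, or 1.4%, 7.0%, and 8.8%, against 5.86%, 5.33%, and 6.82% of all windows. limma with an intensity trend and voom weights also gave 0 calls in the 500 windows for all 3. The smallest adjusted p among the 500 was 0.831 in B6, 0.882 in D2, and 0.683 for the interaction. The median standard errors of the 500 windows were 0.18, 0.15, and 0.24, so changes of this size on the log2 scale were not detectable. In B6 the 2 smallest p-values were in Muc19. In chr15:91907551-91907700 the controls were between 8.31 and 8.70 and the CORT + DFP mice between 8.05 and 8.70, and the estimate was -0.27 ± 0.10 (SE, adjusted p = 0.831). In chr15:91907401-91907550 it was -0.32 ± 0.13 (SE, adjusted p = 0.838). In D2 the 2 smallest were near Rn4.5s. The D2 controls had log2 RPKM values of 6.74, 6.77, 7.47, 7.54, 7.54, and 7.56 in chr6:47682751-47682900, and the CORT + DFP mice 7.38 to 7.84. The estimate was 0.36 ± 0.10 (SE, adjusted p = 0.882), and the 2 lowest control values were the females of set 3. In chr6:47661151-47661300 it was 0.33 ± 0.10 (SE, adjusted p = 0.889). The smallest interaction p-values were in chr6:47682601-47682750 and chr6:47682751-47682900, with estimates of 0.51 ± 0.17 and 0.50 ± 0.17 (SE) and an adjusted p of 0.683 for both. Of the 35 windows in D2, 18 lay in the array near Rn4.5s, and 12 in the satellite loci. The satellite loci had median estimates of 0.13 in B6 and -0.20 in D2, with median standard errors of 0.19 and 0.16. The 2 effects and their interaction share the control mice and are not independent.

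Between females and males, 5.63% of all windows were called, 5.21% higher in females and 0.417% lower. All windows include those of the X chromosome, which the 500 autosomal windows leave out, so the shares are not alike. The share over the autosomal windows alone is not given here. Of the 500 windows, 2 (0.4%) were called. Both lie in an intron of Aida on chromosome 1 and were lower in females. In chr1:183299401-183299550 the 11 females had a mean log2 RPKM of 8.69 ± 0.19 (SD) and the 12 males 8.88 ± 0.18 (SD), with overlap. The estimate was -0.18 ± 0.04 (SE, adjusted p = 0.00385), and the permutation p without covariates was 0.0249. The adjacent chr1:183299251-183299400 had -0.17 ± 0.04 (SE, adjusted p = 0.00923). Both were also called lower in D2 than in B6 controls, by 0.24 and 0.25, and neither was with set in place of age.

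Between the sets, with set in place of age in the regression, 0 of the 500 windows were called in B6, 3 had an unadjusted p under 0.05, and the share of all windows called was 0.000476%. limma and voom weights gave 0 calls in the 500 windows as well. The smallest p-values were in chr11:3193501-3193650 at the Sfi1 locus (set 2 minus set 1, 0.20 ± 0.08 (SE), adjusted p = 0.808) and chr10:58225351-58225500 of LOC100504180, a RefSeq gene in the Duxf3 array (-0.32 ± 0.15 (SE), adjusted p = 0.818). In D2, 46 of the 500 windows (9.2%) were called between set 3 and set 1, against 0.947% of all windows. All 46 were lower in set 3, and 0.35% of all windows were called lower. The median estimate was -0.38 in the 500 windows and 0.01 over all windows, and 341 of the 500 had an unadjusted p under 0.05. The called windows were 27 in the other loci and 19 in the satellite loci, and in the regression 0 of the 39 ribosomal windows were called or had an unadjusted p under 0.05. The array near Rn4.5s had 15 called windows, the chromosome 14 satellite 11, and Gm40237 8. The 3 largest called differences were at Gm40237. In chr4:118547401-118547550 the D2 mice of set 1 had a mean log2 RPKM of 7.95 ± 0.19 (SD, n = 5) and those of set 3 7.35 ± 0.26 (SD, n = 7), with overlap. The estimate was -0.66 ± 0.11 (SE, adjusted p = 0.0202). Those of chr4:118547101-118547250 and chr4:118547251-118547400 were -0.64 ± 0.13 (SE, adjusted p = 0.0349) and -0.64 ± 0.11 (SE, adjusted p = 0.0265).

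Depth moved with this set difference. The D2 mice had 10341578 to 12298918 reads in set 1 and 12240614 to 18428398 in set 3, and the mean log2 of the reads differed by 0.46. In the highest window of all, the D2 mice had log2 RPKM values of 16.61 to 16.90 in set 1 and 15.83 to 16.56 in set 3, without overlap. Their reads were 177373 to 184094 in set 1 and 175554 to 183244 in set 3, so in reads the sets overlapped. The estimate in log2 RPKM was -0.63 ± 0.14 (SE, adjusted p = 0.0507). When log2 depth was added to the regression, 0 of the 500 windows and 0% of all windows were called. At an unadjusted p under 0.05 there were then 212 of the 500 windows (42.4%) and 9.59% of all windows, and the median estimate of the 500 was -0.32 with a median standard error of 0.17. In these D2 mice the set, the age, and the depth of a library cannot be separated, and so cannot be told apart. The count of 46 also rested on single mice, and fell to 0 without D2 CORT + DFP replicate 1 and rose to 156 without D2 control replicate 3. The matching shares of all windows are not given here, so these counts do not show a change particular to the 500 windows.

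**Figure D5:**
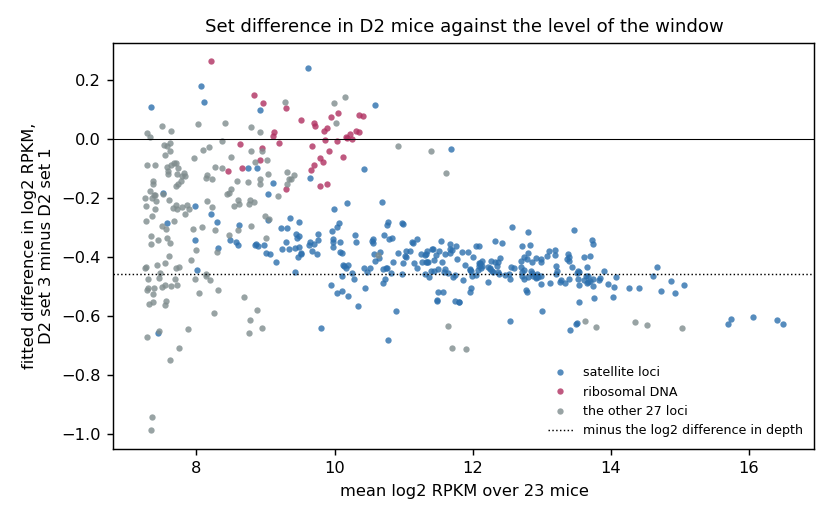
Fitted difference in log2 RPKM between D2 mice of set 3 and set 1 against the mean log2 RPKM of each of the 500 windows, with the dotted line at minus the difference in mean log2 reads between the sets (0.46). Most satellite windows lay near the dotted line, with a median of -0.42 over the satellite loci, and the ribosomal windows near 0, with a median of 0.003.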

How the data were processed

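DNA of the prefrontal cortex of 23 mice was enriched with MBD2 protein after shearing and sequenced. Per the labels and methods, the authors used STAR 2.5.0a for alignment to GRCm38, counted reads in 150 bp windows with MEDIPS, keeping 1 read per position, and scaled them with edgeR 3.34.1. The deposited values are log2 RPKM with a small prior count, and CF is the CpG count of each window. Reads per window were recovered from these values, and 100% were whole within 0.001. The depth was 9776537 to 18428398 reads per mouse, and counting intervals would cover counting error only.

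The 500 autosomal windows with the highest mean over all mice were taken. Each window was fitted with treatment and strain, the interaction of both, sex, and age, with set in place of age for set differences, by ordinary least squares with 17 residual degrees of freedom. P-values were adjusted over 210191 windows by the Benjamini-Hochberg method, and calls needed an adjusted p under 0.05. P-values in the text are from this fit unless called a permutation p. The tests were checked on simulated data. The windows named are the 5 highest, those at the edge, the highest of the largest runs, and the called windows with the largest differences, or the smallest p-values where none was called. The members, lists, and tests were chosen with earlier results of these data known. Alternatives were limma 3.58.1 with an intensity trend, voom weights, centring, no age term, set, or depth as a covariate, 250 or 1000 windows, and leaving out each mouse. Python 3.11.15, numpy 2.4.6, scipy 1.17.1, pandas 2.3.3, and R 4.3.3 were used. Annotation was from GENCODE M21 and RefSeq, and sequence was read for the 116 windows that lie wholly inside an exon.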

Additional observations from a re-analysis of the deposited data

Results flagged for a closer look

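In 8 of 132 groups tested, 1 mouse lay apart from the others of its group by Dixon's criterion, and chance gives about 1 in 20, or 6.6 of 132. Values are log2 RPKM. Each window and group was tested by itself, so the mouse apart need not be the same in each window. In B6 controls, the values apart were 8.74 in chr1:183299251-183299400 and 8.79 in chr1:183299401-183299550, both in Aida. They were 8.37 in chr10:58225351-58225500 of LOC100504180 and 10.67 in chr11:3193501-3193650 at the Sfi1 locus. In B6 CORT + DFP mice the values apart were 8.77 in chr1:183299251-183299400 and 15.46 in chr9:3000451-3000600 of the satellite. A D2 control mouse had 8.91 in chr11:3193351-3193500 at the Sfi1 locus, and a D2 CORT + DFP mouse 7.70 in chr8:20267551-20267700 of 6820431F20Rik.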

How the results depend on the processing

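Of 1073 estimates of named windows under the alternatives, 1033 kept their sign and their side of the threshold, 19 kept their sign but no longer passed, and 21 changed sign. The 19 were in Aida for sex and at Gm40237 for set in D2. The 21 were strain estimates of windows not called by the fit with age. With set in place of age, the 5 highest windows on chromosome 2 went from between -0.27 and -0.22 to 0.13 in chr2:98666701, 0.15 in chr2:98666851, 0.16 in chr2:98667001, 0.13 in chr2:98667151, and 0.13 in chr2:98666551, and chr14:19417201 went from -0.04 to 0.37. chr14:19417201 had 0.11 with depth as a covariate and 0.076 with no age term. chr8:55373401 had 0.024 with centring, 0.048 with depth as a covariate, 0.049 with no age term, and 0.0098 without set 1, and chr9:3000451 had -0.054 without set 1. When each mouse was left out, chr14:19417201 lay between -0.110 and 0.050, chr8:55373401 between -0.070 and 0.041, and chr9:3000451 between -0.00045 and 0.175. The causes were not tested. Values below are percentages of the windows called. For the strain difference, 27.0% became 5.2% with the 250 highest windows and 43.0% with 1000, and lay between 25.4% and 30.2% when each mouse was left out. For set in D2, 9.2% became 26.0% with limma (3.35% of all windows), 36.4% with voom weights (2.61%), and 0% with depth as a covariate (0%), and lay between 0% and 31.2% when each mouse was left out. It moved by over 1.5 times without 11 of the 12 D2 mice, all but CORT + DFP replicate 3, and without B6 CORT + DFP replicates 3 and 5 and B6 control replicate 3. The shares of all windows called in the fits that left out a mouse are not given. For sex, 0.4% became 0% with voom weights and with 250 windows, 0.2% with centring and with 1000 windows, and 1.4% without set 1 and with no age term, an alternative chosen after seeing the data. It stayed at 0.4% when each mouse was left out. The treatment, interaction, and B6 set counts were 0 under the alternatives run, from 0% to 0% when each mouse was left out. There were 50 runs, and 31 when windows up to 100000 bp apart were joined. No paired analysis was possible because the replicate numbers were given in order and do not pair mice between groups.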
